A study of Mus musculus with 18 samples.

Results

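Interferon regulatory factors (IRFs) and signal transducers and activators of transcription (STATs) are the transcription factors that act at both ends of the type I interferon response, and 8 of them were followed here at the transcript level in L929 cells, an established line of mouse fibroblasts labelled wild type. The members were Irf1, Irf2, Irf3, Irf5, Irf7, Irf9, Stat2 and Stat3, taken by gene name, and all 8 were found among the 57180 genes of the count table and were among the 14263 genes with enough counts to test. The 18 RNA-seq libraries formed 6 groups of 3 independent cultures. Mock cells carried the treatment label DMSO, AOA cells received 0.5 mM aminooxyacetic acid (an inhibitor of aminotransferases), and AOA+Asp cells received AOA with 20 mM aspartate. The HT-DNA, HT-DNA+AOA and HT-DNA+AOA+Asp groups were given the same 3 treatments and transfected by Lipofectamine with 0.5 μg/ml herring testis DNA, a ligand of the DNA sensor cGAS, for 6 h, with AOA added 1 h earlier. No group received aspartate alone, and the labels do not say whether groups without HT-DNA were given the transfection reagent. Every value comes from 1 cell line and 1 dose of each agent, and HT-DNA was given for 1 length of time. For AOA and AOA+Asp cells the sample records give 1 h of AOA pretreatment and do not state the total exposure. Comparisons of these groups with other groups could therefore include a difference in exposure time, which was not tested.

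In the known pathway, cytosolic DNA is sensed by cGAS, STING recruits the kinase TBK1, and TBK1 phosphorylates IRF3, which is made constitutively and switches on interferon-β. Secreted interferon then acts through its receptor to assemble ISGF3, a complex of IRF9, STAT2 and a partner STAT protein that binds the interferon-stimulated response element (ISRE). IRF7 is a target of ISGF3 and drives a later wave of interferon genes, IRF1 is an activator induced by interferons through the gamma-activated sequence (GAS), IRF2 competes with IRF1 for the same sites, IRF5 acts downstream of innate sensors in immune cells, and STAT3 mediates signals of the IL-6 family. The activity of IRF3 and the STATs is set by phosphorylation, which RNA-seq does not measure.

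The promoters of these genes differ in whether they hold letters of the ISRE (searched as GAAA, any 2 bases and GAAA) or of the GAS (searched as TTCNNNGAA), on both strands. RefSeq promoters of build GRCm38.p6, 250 bases before to 50 after each start site, were found for 8 of 8 members with 10 start sites. The ISRE letters were in 2 members and the GAS letters in 2, and 5 members held neither. Only the 250 bases before the start site were searched. In that window, 2.98% of 32851 mouse promoters held the ISRE letters and 7.02% the GAS letters. The 250 bases before the start site are shown for Irf1, Irf2 and Stat2 because they hold a match, in capitals, and for Irf7 because it had the largest change and held none. The windows are chr11:53769764-53770013 (plus strand), chr8:46739495-46739744 (plus strand), chr10:128270248-128270497 (plus strand) and chr7:141266425-141266674 (minus strand), each written 5′ to 3′ along the gene.
Irf1: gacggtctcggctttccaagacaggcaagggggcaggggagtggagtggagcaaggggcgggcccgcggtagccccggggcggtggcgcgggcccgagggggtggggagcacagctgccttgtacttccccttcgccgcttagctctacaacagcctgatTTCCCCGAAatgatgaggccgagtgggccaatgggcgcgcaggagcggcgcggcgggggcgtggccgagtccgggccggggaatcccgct
Irf2: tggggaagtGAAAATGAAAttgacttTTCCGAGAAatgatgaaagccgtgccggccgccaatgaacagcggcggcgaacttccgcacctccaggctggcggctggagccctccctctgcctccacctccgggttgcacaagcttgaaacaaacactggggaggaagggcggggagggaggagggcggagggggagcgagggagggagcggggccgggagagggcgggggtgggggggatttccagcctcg
Stat2: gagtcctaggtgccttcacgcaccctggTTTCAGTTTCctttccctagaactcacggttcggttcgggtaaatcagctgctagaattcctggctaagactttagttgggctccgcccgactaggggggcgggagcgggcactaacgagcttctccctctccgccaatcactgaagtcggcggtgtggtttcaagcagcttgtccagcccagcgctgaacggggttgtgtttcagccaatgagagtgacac
Irf7: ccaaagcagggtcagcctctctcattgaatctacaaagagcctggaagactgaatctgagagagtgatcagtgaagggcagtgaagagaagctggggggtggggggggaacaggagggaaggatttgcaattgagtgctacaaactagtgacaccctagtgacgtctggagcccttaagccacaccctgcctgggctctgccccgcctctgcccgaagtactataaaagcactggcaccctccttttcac
In Irf1 the GAS letters TTCCCCGAA lay 90 to 82 bases before the printed start site, the first of the 2 listed, and the second held none. In Irf2 the ISRE letters GAAAATGAAA lay 241 to 232 bases and the GAS letters TTCCGAGAA 224 to 216 bases before the start. In Stat2 the ISRE letters GAAACTGAAA, on the minus strand, lay 222 to 213 bases before the start, where the printed strand reads TTTCAGTTTC. A match is a description of letters and not of binding, and the absence of one says only that these letters were not in this window.

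Library totals ran from 17901546 to 24057284 estimated counts (median 20385793). Summed levels of 8 fibroblast markers were 4750 to 6890 CPM (counts relative to the TMM-scaled library size, on the usual CPM scale), with 7 of the 8 high enough to test, while 4 macrophage markers summed to at most 0.489 CPM, with Ptprc and Adgre1 at no more than 3 counts in any library, and sums of 3 epithelial, 2 endothelial and 2 lymphocyte markers were at most 0.337, 0.47 and 0.116 CPM. Libraries stood apart by base composition. The log2 level of genes with 60% GC relative to genes with 40% GC, measured against the mean of all libraries, was -0.019 to 0.009 in Mock, 0.34 to 0.56 with HT-DNA alone and -0.51 to -0.15 in AOA+Asp. HT-DNA+AOA libraries were the most uneven, from -0.40 in replicate 1 to 0.41 in replicate 3, with a median SD per gene of 0.214 on the log2 scale, against 0.0688 to 0.108 in the other groups. Values corrected for transcript GC and length, and values without single libraries, are therefore given where a call depended on them.

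Divided by transcript length, the members covered a wide range. In Mock cells Stat3 (ENSMUSG00000004040) and Irf3 (ENSMUSG00000003184) had the highest levels per kilobase, 19.9 and 16.1 CPM per kb, followed by Irf2 (ENSMUSG00000031627) with 10.3, Irf1 (ENSMUSG00000018899) with 6.11, Irf9 (ENSMUSG00000002325) with 5.52, Stat2 (ENSMUSG00000040033) with 4.45, Irf7 (ENSMUSG00000025498) with 1.08 and Irf5 (ENSMUSG00000029771) with 0.376 CPM per kb. With HT-DNA and AOA this order changed, and Irf9, at 24.2 CPM per kb, stood above Irf3 at 20.7, Stat3 at 19.1, Irf1 at 16.5, Stat2 at 14, Irf7 at 10.9, Irf2 at 8.17 and Irf5 at 1.31. Irf5 rested on 9 to 61 counts per library, the fewest of the members.

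**Figure D1:**
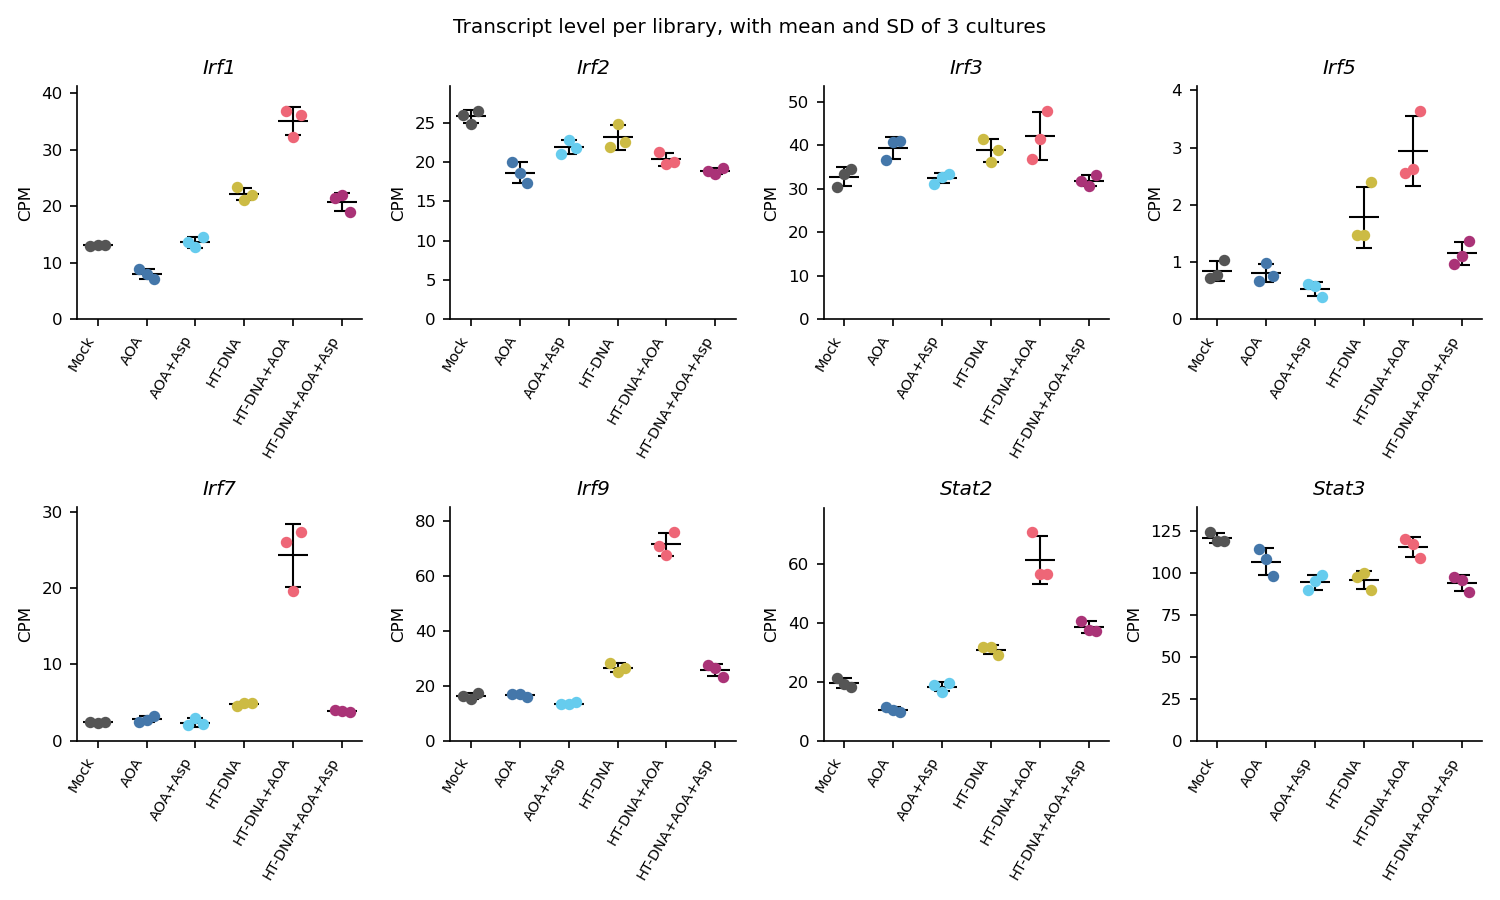
CPM of each gene in each of 18 libraries (points, 3 cultures a group) with the group mean and SD (bars), on linear axes that start at 0. Irf7, Irf9 and Stat2 stood highest in HT-DNA+AOA, where Irf7 lay between 19.6 and 27.3 CPM against at most 4.98 CPM in any other group, while Irf2, Irf3 and Stat3 covered a narrow range.

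AOA alone lowered Irf1, Stat2 and Irf2 in unstimulated cells while Irf7 and Irf9 were not called, and with aspartate added Irf1 and Stat2 were not called different from Mock. Stat2 was at 21.4, 19.2 and 18.1 CPM in Mock, 11.4, 10.5 and 9.71 CPM with AOA and 18.8, 16.6 and 19.7 CPM with AOA and aspartate. The AOA libraries lay below all others, and Mock and AOA+Asp overlapped. Its log2 fold change was -0.89 with AOA (0.539-fold, standard error (SE) 0.107, adjusted p = 2.18e-06 by the quasi-likelihood test of edgeR, Benjamini-Hochberg adjusted over all genes tested) and 0.80 for aspartate added to AOA (SE 0.108, adjusted p = 9.1e-06 by edgeR). Irf1 was at 13, 13.1 and 13.1 CPM in Mock, 8.8, 7.99 and 7.04 CPM with AOA and 13.6, 12.7 and 14.6 CPM with AOA and aspartate, the same pattern of low AOA libraries and overlap of the other groups. Its log2 fold change was -0.71 with AOA (SE 0.0988, adjusted p = 1.13e-05 by edgeR) and 0.78 on adding aspartate (SE 0.0986, adjusted p = 4.69e-06 by edgeR). Irf2, the competitor of Irf1, fell by 0.47 on the log2 scale with AOA (SE 0.0759, adjusted p = 6.25e-05 by edgeR), from 26, 24.9 and 26.5 CPM to 20, 18.6 and 17.3 CPM, without overlap. A gene is called different here where this adjusted p is under 0.05. In this bulk measurement fewer expressing cells and less RNA per cell cannot be told apart.

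For Irf7 the difference between AOA and Mock was 0.19 on the log2 scale (SE 0.176) and for Irf9, the DNA-binding subunit of ISGF3, it was 0.013 (SE 0.0859), while Stat2, the other subunit measured, was lower by the amount given above. Irf5 differed by -0.047 (SE 0.302). Small differences were called for Irf3, with a log2 fold change of 0.27 (SE 0.0899, adjusted p = 0.0206 by edgeR), and Stat3, with one of -0.18 (SE 0.0697, adjusted p = 0.0449 by edgeR). Neither held in every setting. Without TMM scaling, on library totals, the Irf3 value was 0.14 and was not called, and its call also ended without Mock replicate 1 (0.21), AOA replicate 2 (0.24) or AOA replicate 3 (0.24). The Stat3 value was -0.066 after the GC correction, and its call ended on leaving out any of the Mock or AOA libraries except AOA replicate 1, with values from -0.19 to -0.12, and without a filter on low counts (-0.18).

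In all, 5 of the 8 members were called between AOA and Mock (1 higher and 4 lower), against 45.7% of all genes tested. Adding aspartate to AOA called 6 (3 higher and 3 lower), against 46.3% of all genes. With so many genes called, these counts are not a result about the members. Besides Irf1 and Stat2, aspartate gave Irf2 a value of 0.23, Irf3 one of -0.28, Irf9 one of -0.28 and Stat3 one of -0.18. Without a filter on low counts those of Irf2 (0.23), Irf9 (-0.28) and Stat3 (-0.18) were not called. Of these the Irf9 call ended with library totals (-0.20), and the Irf3 call with library totals (-0.20) and with the GC correction (-0.11), while Stat3 also was not called with library totals (-0.093). Calls also ended for Irf2 without AOA replicate 2 (0.23), AOA replicate 3 (0.18) or AOA+Asp replicate 2 (0.20), for Irf3 without AOA replicate 2 (-0.26), AOA replicate 3 (-0.25) or AOA+Asp replicate 1 (-0.25), and for Stat3 without AOA replicate 1 (-0.13), AOA replicate 2 (-0.17), AOA+Asp replicate 1 (-0.14) or AOA+Asp replicate 2 (-0.18). Between AOA+Asp and Mock 1 member was called, against 6.47% of all genes. That member was Stat3, with a log2 fold change of -0.35 (SE 0.0698, adjusted p = 0.00414 by edgeR), from 124, 119 and 119 CPM to 89.6, 94.8 and 98.4 CPM. For Stat2 and Irf1 the differences between AOA+Asp and Mock were -0.088 (SE 0.102) and 0.065 (SE 0.0932). Irf2 (-0.24, SE 0.0747) and Irf9 (-0.27, SE 0.0866) were not called, but both were with library totals (-0.29 and -0.32) and when only those groups were fitted (-0.24 and -0.28), and Irf2 also after the GC correction (-0.27) and by DESeq2 (-0.24).

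HT-DNA alone raised the interferon-inducible members Irf1, Irf7, Irf9 and Stat2 and the low gene Irf5 by 1.58-fold to 2.12-fold. Irf7 was at 2.45, 2.34 and 2.47 CPM in Mock and 4.55, 4.97 and 4.98 CPM with HT-DNA, without overlap, a log2 fold change of 1.00 (SE 0.164, adjusted p = 0.000119 by edgeR). Irf9 went from 16.4, 15.2 and 17.4 CPM to 28.4, 25.1 and 26.3 CPM, a log2 fold change of 0.70 (SE 0.0834, adjusted p = 5.66e-06 by edgeR). In both genes every HT-DNA library lay above every Mock library. Stat2 reached 31.8, 31.8 and 29.3 CPM, a log2 fold change of 0.66 (SE 0.0993, adjusted p = 5.43e-05 by edgeR). Irf1 reached 23.4, 21.2 and 22 CPM, also above Mock, a log2 fold change of 0.77 (SE 0.0908, adjusted p = 5.74e-06 by edgeR). Irf5 had 1.47, 1.47 and 2.4 CPM against 0.719, 0.766 and 1.04 CPM in Mock, with HT-DNA replicate 3 the highest, and its log2 fold change was 1.08 (SE 0.273, adjusted p = 0.00345 by edgeR), or 0.80 without that library.

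The constitutive factor Irf3 and the IL-6 pathway factor Stat3 had smaller values. Stat3 was lower with HT-DNA, at 97.3, 100 and 89.9 CPM, a log2 fold change of -0.33 (SE 0.0698, adjusted p = 0.000909 by edgeR). Irf3 was called at 0.25 (SE 0.0898, adjusted p = 0.03 by edgeR), but its transcript has 56.7% GC, and after the GC correction the value was -0.074. Its call also ended with library totals (0.14) and without Mock replicate 1 (0.19), Mock replicate 2 (0.26), HT-DNA replicate 1 (0.20) or HT-DNA replicate 3 (0.24). Irf2 was not called at -0.16 (SE 0.0746), though it was called with library totals (-0.27) and without HT-DNA replicate 2 (-0.21). In all, 7 of 8 members were called between HT-DNA and Mock (6 higher and 1 lower), against 48.2% of all genes tested (24.2% higher). Irf1, Irf7 and Irf9 belong to the interferon-stimulated genes that the study displayed from these same libraries, so their direction is not independent evidence.

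In cells stimulated with HT-DNA, AOA raised the same interferon-inducible factors further, Irf7 most. Irf7 was at 26, 19.6 and 27.3 CPM with HT-DNA and AOA, above all 3 libraries with HT-DNA alone, a 5.02-fold difference (log2 fold change 2.33, SE 0.142, adjusted p = 2.48e-10 by edgeR). Irf9 reached 71, 67.6 and 75.8 CPM, 2.68-fold above HT-DNA (log2 fold change 1.42, SE 0.08, adjusted p = 9.01e-11 by edgeR). Stat2 reached 70.9, 56.9 and 56.6 CPM, 1.99-fold above HT-DNA (log2 fold change 0.99, SE 0.0959, adjusted p = 1.01e-07 by edgeR). The HT-DNA+AOA libraries of all 3 genes lay above every other library of the series. Irf1 reached 36.9, 32.3 and 36.2 CPM, 1.58-fold above HT-DNA (log2 fold change 0.66, SE 0.0869, adjusted p = 4.57e-06 by edgeR). After the GC correction the log2 fold changes of Irf7, Irf9, Stat2 and Irf1 were 2.49, 1.47, 1.07 and 0.72, and without any single library they stayed between 2.23 and 2.46, 1.38 and 1.47, 0.87 and 1.04, and 0.62 and 0.72.

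Irf5 was higher with HT-DNA and AOA, at 2.56, 2.62 and 3.64 CPM (log2 fold change 0.71, SE 0.245, adjusted p = 0.0239 by edgeR), but its call ended without HT-DNA replicate 1 (0.59), HT-DNA replicate 2 (0.59) or HT-DNA+AOA replicate 3 (0.53). It also ended without a filter on low counts (0.69) and in a fit to these 6 libraries alone (0.71). Stat3 was at 120, 117 and 109 CPM, a log2 fold change of 0.27 (SE 0.07, adjusted p = 0.00416 by edgeR), whose adjusted p was 0.0563 in that smaller fit. Irf2 at -0.18 (SE 0.0763) and Irf3 at 0.11 (SE 0.0895) were not called. They were called after the GC correction (-0.34 and 0.30), and Irf2 also with library totals (-0.22) and without HT-DNA replicate 1 (-0.22) or HT-DNA+AOA replicate 1 (-0.22). Of the 8 members 6 were higher and none lower, by edgeR, against 22.8% of all genes higher and 45.4% in either direction. At an unadjusted p under 0.05 the lower members numbered 1, which was Irf2, and none was lower by DESeq2. The median over the 8 was 0.686 on the log2 scale, against 0.0242 over all genes tested.

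**Figure D2:**
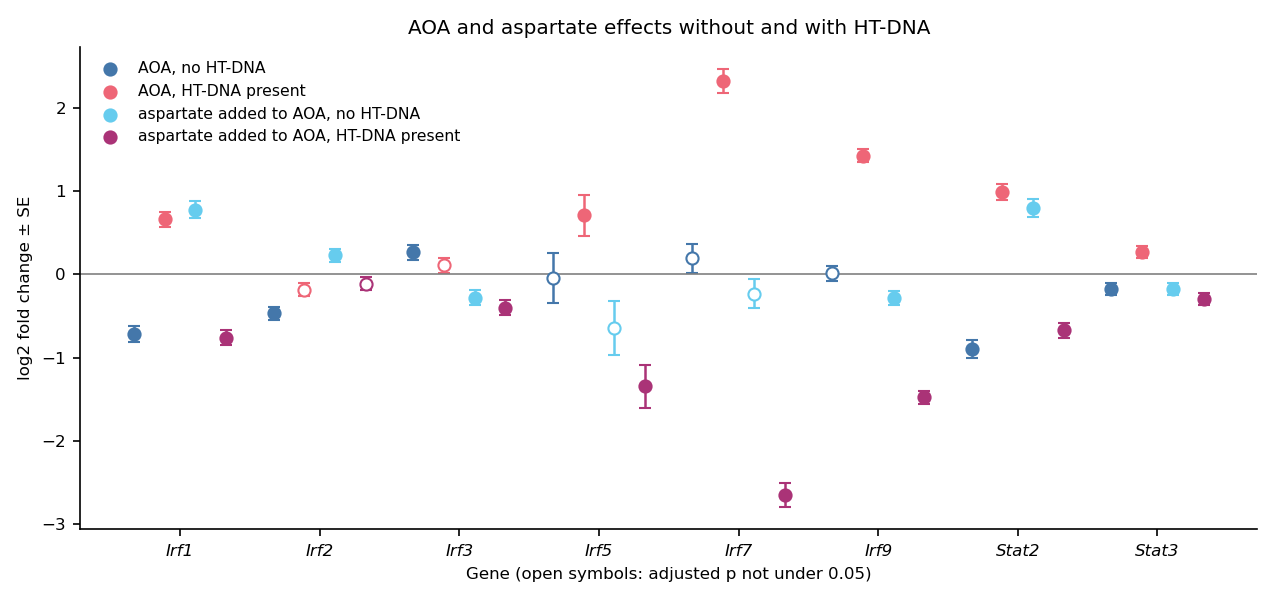
Log2 fold changes (y axis, with SEs as bars) of AOA and of aspartate added to AOA, without and with HT-DNA, for each gene. Filled points had an adjusted p under 0.05. Irf1 and Stat2 were below 0 for AOA without HT-DNA (-0.71 and -0.89) and above 0 with it (0.66 and 0.99), and aspartate gave the opposite signs.

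The effect of AOA therefore had opposite signs for Irf1 and Stat2 without and with HT-DNA, and the difference was tested as an interaction. This was 1.88 on the log2 scale for Stat2 (SE 0.144, adjusted p = 1.08e-06 by edgeR) and 1.38 for Irf1 (SE 0.132, adjusted p = 4.87e-06 by edgeR). Irf7 and Irf9, which AOA alone left near the Mock level, had interactions of 2.13 (SE 0.226, adjusted p = 1.46e-05 by edgeR) and 1.41 (SE 0.117, adjusted p = 1.16e-06 by edgeR). That of Stat3 was 0.44 (SE 0.0988, adjusted p = 0.00712 by edgeR). For Irf5 (0.76, SE 0.39), Irf2 (0.29, SE 0.108) and Irf3 (-0.16, SE 0.127) it was not called, although Irf2 was called with library totals (0.38), with at least 10 counts asked of every library (0.31) and without HT-DNA replicate 2 (0.37) or HT-DNA+AOA replicate 3 (0.30). The 5 called members compare with 15.5% of all genes tested (7.23% in the same direction).

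Aspartate given with AOA lowered Irf7, Irf9 and Irf1 in HT-DNA–stimulated cells to levels not called different from HT-DNA alone, and lowered Stat2 to a level still above HT-DNA alone. Irf7 was at 3.97, 3.9 and 3.74 CPM in HT-DNA+AOA+Asp, a log2 fold change of -2.65 from HT-DNA+AOA (SE 0.146, adjusted p = 9.1e-11 by edgeR). Irf9 was at 27.5, 26.4 and 23.2 CPM, a log2 fold change of -1.48 (SE 0.0802, adjusted p = 8.26e-11 by edgeR). Irf1 was at 21.4, 22 and 18.9 CPM, a log2 fold change of -0.76 (SE 0.0874, adjusted p = 1.27e-06 by edgeR). For these genes the libraries with aspartate lay below every HT-DNA+AOA library. Compared with HT-DNA alone, the differences were -0.32 for Irf7 (SE 0.156), -0.052 for Irf9 (SE 0.0814) and -0.097 for Irf1 (SE 0.0884), none of them called. The Irf9 and Irf1 libraries overlapped with those of HT-DNA alone, and the Irf7 libraries lay just below them. The comparisons of HT-DNA+AOA with HT-DNA and with HT-DNA+AOA+Asp share the HT-DNA+AOA libraries.

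Stat2 was at 40.9, 37.6 and 37.3 CPM with aspartate, a log2 fold change of -0.67 from HT-DNA+AOA (SE 0.0949, adjusted p = 1.38e-05 by edgeR). These libraries lay between the groups, below HT-DNA+AOA and above HT-DNA. The value was 0.32 above HT-DNA (1.25-fold, SE 0.0964, adjusted p = 0.0121 by edgeR) and 0.31 after the GC correction, and the call ended without HT-DNA replicate 3 (0.28) or HT-DNA+AOA+Asp replicate 1 (0.27). Irf5, at 0.967, 1.11 and 1.37 CPM, had a log2 fold change of -1.34 from HT-DNA+AOA (SE 0.258, adjusted p = 0.000331 by edgeR). Irf3 (-0.40, SE 0.0904) and Stat3 (-0.30, SE 0.07) were also lower, and Irf2 (-0.11, SE 0.0772) was not called. Aspartate thus lowered 7 of the 8 members, against 23.9% of all genes lower and 47.7% called in either direction.

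Between HT-DNA+AOA+Asp and HT-DNA, 3 members were called, against 46.6% of all genes, namely Stat2, Irf2 (-0.30, SE 0.0761, adjusted p = 0.00435 by edgeR) and Irf3 (-0.29, SE 0.0901, adjusted p = 0.014 by edgeR). The Irf3 value turned to 0.066 after the GC correction, and its call ended without HT-DNA replicate 1 (-0.24) or HT-DNA+AOA+Asp replicate 2 (-0.26), whereas Irf2 was at -0.46 after the correction. Irf5 was not called (-0.63, SE 0.265) but was without HT-DNA replicate 2 (-0.77). The aspartate effect itself differed with and without HT-DNA for 4 members, against 1.05% of all genes tested (0.785% in the same direction). The interactions were -2.42 for Irf7 (SE 0.23), -1.54 for Irf1 (SE 0.132), -1.48 for Stat2 (SE 0.143) and -1.19 for Irf9 (SE 0.118), with adjusted p-values by edgeR of 1.91e-05 for Irf7, Irf9 and Stat2 and 7.28e-06 for Irf1. That of Stat3 (-0.12, SE 0.0989) was called after the GC correction (-0.23). Both interactions share the AOA and HT-DNA+AOA libraries.

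Seen as a response to HT-DNA, the same 5 members rose in both settings with AOA. With AOA present, HT-DNA raised Irf7 8.76-fold (log2 fold change 3.13, SE 0.153), Stat2 5.82-fold (2.54, SE 0.105), Irf1 4.42-fold (2.14, SE 0.0956), Irf9 4.34-fold (2.12, SE 0.0834) and Irf5 3.58-fold (1.84, SE 0.272), against 6.46% of all genes higher and 13.4% called. The low AOA levels of Stat2 and Irf1 entered these folds, as they are measured from the AOA group. Stat3, at 0.11 (SE 0.0699), was called after the GC correction (0.25). Irf2 and Irf3 had values of 0.13 (SE 0.0776) and 0.091 (SE 0.0897).

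With AOA and aspartate, HT-DNA raised Stat2 2.1-fold (log2 fold change 1.07, SE 0.0993), Irf9 1.9-fold (0.92, SE 0.0849) and Irf1 1.52-fold (0.60, SE 0.091), and Irf5 (1.13, SE 0.308, adjusted p = 0.048 by edgeR) and Irf7 (0.71, SE 0.169, adjusted p = 0.021 by edgeR) were called as well. These 5 compare with 1.93% of all genes higher and 3.45% called. Leaving out any of the 6 libraries ended the Irf5 call (0.94 to 1.26), and leaving out any of them except AOA+Asp replicate 2 ended that of Irf7 (0.61 to 0.74). The Irf5 call also ended without a filter on low counts (1.14). Irf2 was not called (-0.21, SE 0.0762) but was after the GC correction (-0.23). The values in the 3 settings are set side by side in the plot of HT-DNA responses.

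**Figure D3:**
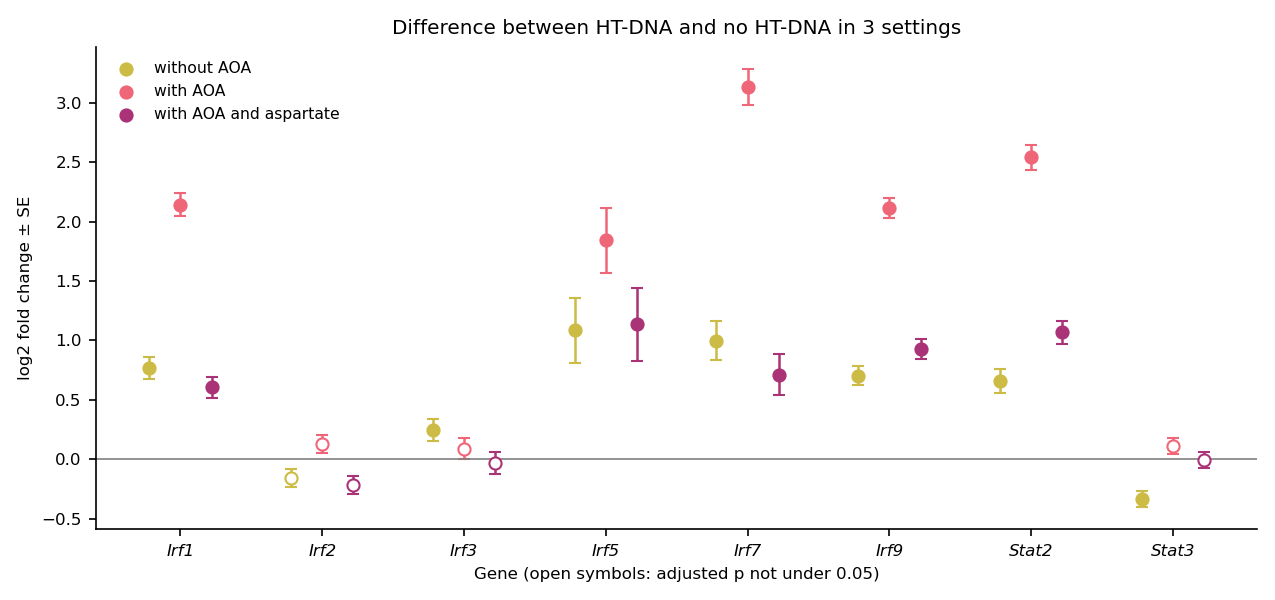
Log2 fold change of each gene between cells with and without HT-DNA (y axis, bars are standard errors), without AOA, with AOA, and with AOA and aspartate. Filled points had an adjusted p under 0.05. Irf1, Irf7, Irf9 and Stat2 had larger values with AOA (2.12 to 3.13) than in both other settings (0.60 to 1.07).

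The order of the group levels was resolved to a different extent for each gene. For Stat2, 4 of 5 neighbouring pairs differed, in the order HT-DNA+AOA, HT-DNA+AOA+Asp, HT-DNA, Mock, AOA+Asp and AOA, and only the pair Mock and AOA+Asp did not. For Irf1, 3 of 5 pairs differed, with HT-DNA next to HT-DNA+AOA+Asp and AOA+Asp next to Mock not told apart. For Irf7 and Irf9, 2 pairs each differed, between HT-DNA+AOA and HT-DNA and between HT-DNA+AOA+Asp and AOA. For Irf3 the pair HT-DNA and Mock differed and for Irf5 the pair HT-DNA+AOA and HT-DNA, 1 of 5 each. As given above, neither call held in every setting, nor did that of Stat2 between HT-DNA+AOA+Asp and HT-DNA. For Irf2 and Stat3 none of the 5 pairs differed by edgeR, while an unadjusted p under 0.05 was reached by 0 pairs of Irf2 and by 1 pair of Stat3 (AOA above HT-DNA), which DESeq2 called.

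The balance between members moved as well. These ratios are taken within a library on levels per kb, so library scaling cancels, and no test was run on them. Trends with GC content and length do not cancel, and the ratios were not corrected for them. Irf1 has 52.8% GC and Irf2 46.8%. With that correction, the log2 fold changes of Irf1 and Irf2 for HT-DNA against Mock went from 0.77 and -0.16 to 0.57 and -0.035. For HT-DNA+AOA+Asp against HT-DNA they moved further apart, from -0.097 and -0.30 to 0.081 and -0.46. Irf1 to Irf2, activator to competitor, was 0.474 to 0.515 with AOA against 0.578 to 0.614 in Mock, 0.995 to 1.25 with HT-DNA, 1.91 to 2.11 with HT-DNA and AOA and 1.15 to 1.39 once aspartate was added. Irf2 thus had the higher level per kb in all 9 unstimulated libraries and Irf1 in all 6 libraries that had HT-DNA together with AOA. Stat2 to Irf9, 2 subunits of ISGF3, was 0.702 to 0.878 in Mock, 0.416 to 0.456 with AOA and 0.839 to 0.957 with AOA and aspartate. With HT-DNA it was 0.749 to 0.852, with AOA added 0.502 to 0.671, and with aspartate 0.959 to 1.08. Both without and with HT-DNA, the libraries given AOA without aspartate had the lowest ratios. Irf7 to Irf3 was 0.0573 to 0.0825 in the unstimulated libraries, 0.0996 to 0.125 with HT-DNA, 0.43 to 0.64 with HT-DNA and AOA and 0.102 to 0.115 with aspartate.

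**Figure D4:**
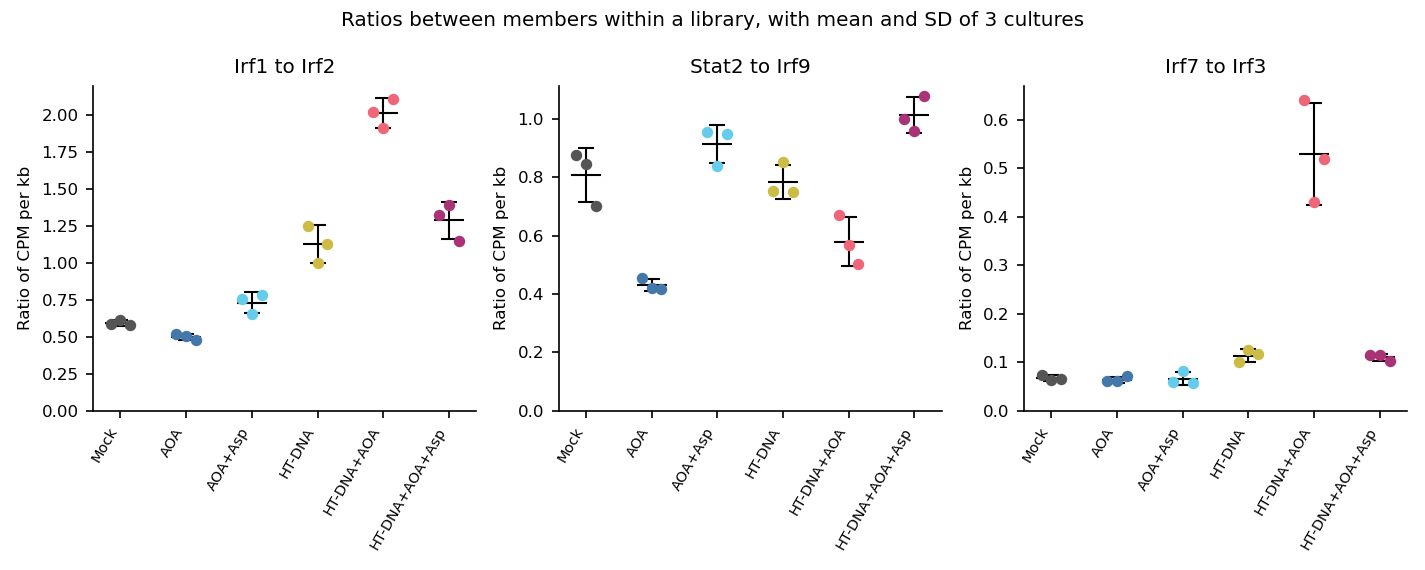
Ratio of the levels per kb of paired genes in each library (points) with the mean and SD of 3 cultures (bars). The Irf1 to Irf2 ratio was highest in HT-DNA+AOA (1.91 to 2.11), and the Stat2 to Irf9 ratio was lowest in AOA (0.416 to 0.456).

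The genes that act before and after these factors were counted from lists of pathway components and textbook targets. Among 10 genes of interferon induction and reception, 9 were tested, and AOA in HT-DNA–stimulated cells raised 3 and lowered 4 (median -0.0284), against 22.8% of all genes higher and 45.4% called in either direction, with a median of 0.0242. The receptor kinase gene Jak2 rose by 1.31 on the log2 scale (SE 0.147), from 18.3 to 25.3 CPM up to 41.3 to 69.8 CPM, and the receptor chain gene Ifnar1 had a value of -0.028 (SE 0.0848). The other risers were the sensor Cgas (0.45) and the receptor chain Ifnar2 (0.19), and those that fell were the kinases Ikbke (-1.11), Tyk2 (-0.74) and Tbk1 (-0.31) and the adaptor Sting1 (-0.66), named after their values were seen. Ifnb1, the ligand, had too few counts to test. It had 0 counts in each Mock, AOA, AOA+Asp and HT-DNA library. An observed 0 does not show absence, as an expected count of up to 3 per library remains possible. Ifnb1 had at most 1 count in HT-DNA+AOA+Asp and up to 6 in HT-DNA+AOA (0.213 ± 0.0973 CPM, SD, n = 3).

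Among 10 targets of ISGF3, all 10 rose when AOA was added to HT-DNA and all 10 fell when aspartate was added to that, with median log2 fold changes of 2.15 and -2.14, against 0.0242 and -0.0115 over all genes tested, of which 22.8% rose and 23.9% fell in these comparisons. Several of them are shown by the study on these samples, so this is not independent evidence of direction. The largest value was that of Ifi44, 4.02 (SE 0.239), which went from 1.11 to 1.8 CPM up to 17.3 to 30.4 CPM, and the smallest that of Ifit2, 1.15 (SE 0.182). HT-DNA alone raised 7 of the 10, against 24.2% of all genes higher. AOA alone raised 0 by edgeR and lowered 1, against 45.7% of all genes called in either direction. The median log2 fold change of the 10 with AOA alone was -0.767, against 0.015 over all genes tested. Among the targets not called, Isg15 (0.62) had an unadjusted p of 0.0415 by edgeR. The gene that was lowered was Ifit2, with a log2 fold change of -1.32 (adjusted p = 3.92e-05 by edgeR). Ifit2 was at 16.2 to 18.8 CPM in Mock, 6.73 to 7.5 CPM with AOA and 15.7 to 16.9 CPM with AOA and aspartate, so that like Stat2 and Irf1 its AOA libraries lay below both other groups.

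Among 6 targets of IRF1, AOA in stimulated cells raised 3 and lowered 1 (median 0.517), against the same 22.8% of all genes higher and 45.4% in either direction. Gbp2, an interferon-inducible GTPase, rose by 3.03 (SE 0.558) from at most 5 counts per library with HT-DNA to at most 32 with AOA added, and Psmb8, an immunoproteasome subunit, had a value of 0.15 (SE 0.105). The other risers were Nlrc5 (1.17) and Tap1 (0.67) of antigen presentation, and the gene that fell was the inflammatory caspase Casp1 (-0.60), named after their values were seen. Among 8 targets of STAT3, 6 were tested, of which 2 rose and 3 fell (median -0.0317), against the same shares of all genes. With so few genes in these lists and so many genes called, the counts are not a result about the lists. The feedback inhibitor Socs3 fell by 1.59 on the log2 scale (SE 0.0889), from 51.5 to 60.1 CPM down to 17.4 to 20.5 CPM, and stayed at 21.7 to 23.5 CPM with aspartate, while the receptor gene Osmr had a value of 0.31 (SE 0.143). Pim1 (-0.38) and Junb (-0.44) fell and Cebpd (1.09) and Il6st (0.35) rose, also named after their values were seen. For other STAT genes, Stat5b had a log2 fold change of -0.30 (SE 0.0672, adjusted p = 0.00127 by edgeR), and Stat5a (-0.69) and Stat6 (-0.77), named after their values were seen, also fell.

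**Figure D5:**
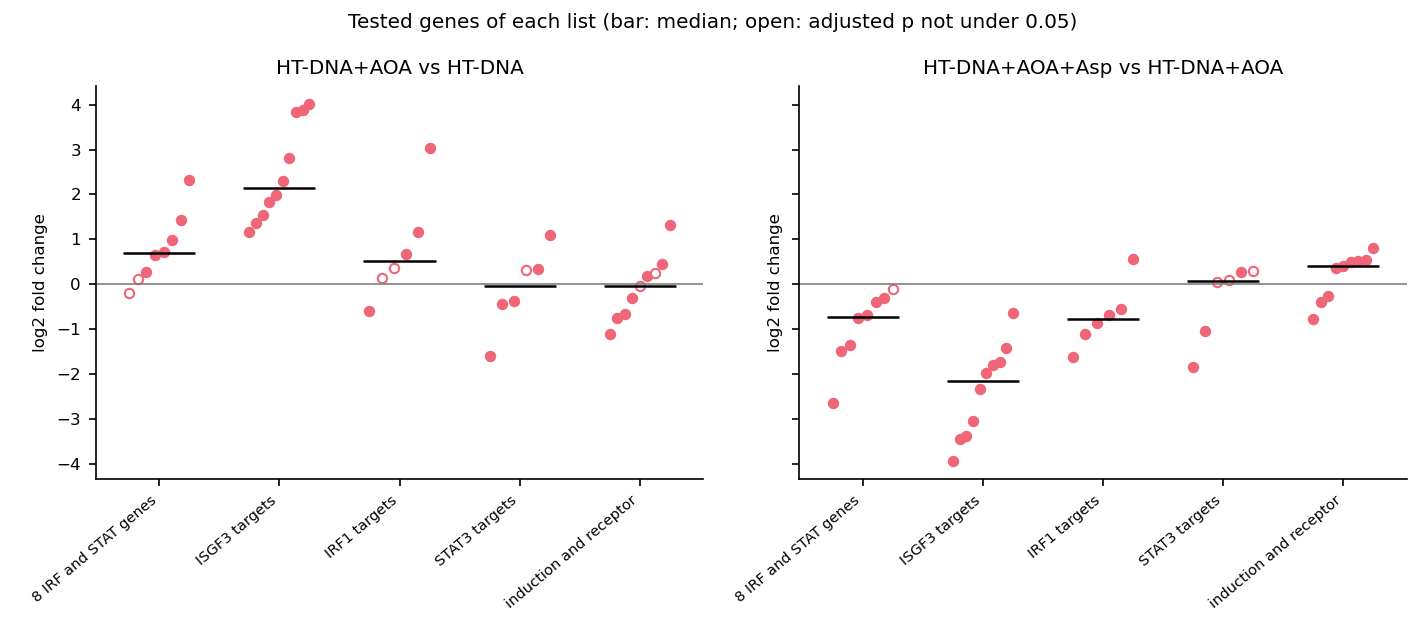
Log2 fold change of each tested gene of 5 lists (points, filled where the adjusted p was under 0.05, with the list median as a bar) for AOA added to HT-DNA (left) and aspartate added to both (right). The 10 ISGF3 targets lay above 0 on the left (median 2.15) and below 0 on the right (median -2.14), while the other lists held both directions in at least 1 of the panels.

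Outside the 8 members, which were left out of this ranking, the genes whose log2 CPM followed each member most closely over the 18 libraries were taken among 12124 genes that averaged 1 CPM or more, as a description in which the libraries share their groups. For Irf9 these were Irgm2 (Pearson r = 0.99), Usp18 (0.987) and Neurl3 (0.981), and for Irf7 they were Parp10 (0.971), A530040E14Rik (0.969) and Marchf5 (0.969). For Stat2 they were Irgm1 (0.979), Parp14 (0.974) and Znfx1 (0.96), and for Irf1 they were Irgm1 (0.966), Utp3 (0.954) and Parp14 (0.95). Irf1 and Stat2 thus shared Irgm1 and Parp14. Between members, Irf1 and Stat2 correlated at 0.98 and Irf7 and Irf9 at 0.974, above every gene outside the members for Irf1, Stat2 and Irf7. For Irf5 they were Slpi (0.956), Gypc (0.946) and H2-T23 (0.94). Irf3 was followed by Gabarapl2 (0.982), Uqcrq (0.961) and Rpl13a (0.961), Irf2 by Txnip (0.917), Notch1 (0.91) and Cish (0.877), and Stat3 by Fads1 (0.924), Gcnt2 (0.86) and Dysf (0.855).

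Reads shared with neighbouring genes could touch some of these counts, since the strand setting of the counting is not given in the sources used here. In the GENCODE vM21 annotation 14.1% of the exon bases of Irf5 lay in exons of Tnpo3 on the opposite strand, and for the other members the share was between 0% and 3.4%. Of the 31-base sequences of the transcripts, 12.3% for Irf5 and 4.82% for Irf9 occurred in other genes, and between 0.174% and 2.36% for the rest. The values of Irf5 are therefore less certain than those of the other members.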

How the data were processed

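Total RNA from L929 cultures was sequenced by the study's provider. The values are expected counts per gene that the authors deposited, of which 11.6% were not whole numbers, and they were rounded here before testing (raw counts had been assumed when the design was written). The aligner, counter, genome build and strand setting are not given in the sources used here. The authors' group means, which equal the library means, were not used. Samples were grouped by their labels, with the cultures described as independent.

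Genes were kept by edgeR's filterByExpr (minimum count 10, minimum total 15), which left 14263, and 525 rows had no gene name of their own. The edgeR 4.0.16 quasi-likelihood test (robust, TMM, R 4.3.3, limma 3.58.1) was fitted to all 18 libraries together, and p-values were adjusted by Benjamini-Hochberg over all genes for each of 11 comparisons, with 0.05 as threshold. All groups thus shared 1 estimate of the spread, although HT-DNA+AOA libraries were the most uneven. Fitted to the compared libraries only, HT-DNA+AOA against AOA had 394 of 13301 genes called, against 1917 of 14263. HT-DNA+AOA against HT-DNA had 4167 of 13256, against 6477 of 14263. In pairs without HT-DNA+AOA the calls over all genes rose. TMM factors were 0.918 to 1.07. Each SE was derived from the edgeR test, as the absolute log2 fold change divided by the square root of its F statistic. Log2 CPM used a prior count of 2. The script was tested on simulated data. Replicates of a group differed by more than sampling noise (chi-square per degree of freedom 2.78 to 67). With a median of 20385793 counts per library, Irf5 had the fewest counts of the members. Irf7 was also low without HT-DNA, at 43 to 63 counts per library.

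Alternatives were DESeq2 1.42.0, RLE factors, library totals, other filters, a minimum fold change, only the compared libraries, a replicate block, a loess correction (span 0.3) for transcript GC content and length from GENCODE vM21 (13909 of the tested genes), and leaving out each library. Replicate numbers matched in their deviations (every r above 0.1) for 1 of 15 pairs of groups, AOA with HT-DNA+AOA (0.111 to 0.421).

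The members and lists were chosen with earlier results of these data known. Named were all members, for each the 3 genes outside the members with the highest correlation among genes of at least 1 CPM, and from each list the genes with the largest and the smallest absolute log2 fold change between HT-DNA+AOA and HT-DNA. One gene that this rule took is not reported here.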

Additional observations from a re-analysis of the deposited data

Results flagged for a closer look

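By the test of the interaction in edgeR with Benjamini-Hochberg adjustment, the effect of AOA differed between cells without and with HT-DNA for 5 members. This compares with 15.5% of all genes tested (7.23% in the same direction). The log2 difference between the effects was 1.88 for Stat2 (adjusted p = 1.08e-06), 1.38 for Irf1 (adjusted p = 4.87e-06), 2.13 for Irf7 (adjusted p = 1.46e-05), 1.41 for Irf9 (adjusted p = 1.16e-06) and 0.44 for Stat3 (adjusted p = 0.00712). The effect of aspartate added to AOA also differed between cells without and with HT-DNA, for 4 members. This compares with 1.05% of all genes tested (0.785% in the same direction). The log2 difference between the aspartate effects was -2.42 for Irf7, -1.19 for Irf9 and -1.48 for Stat2 (each with adjusted p = 1.91e-05 by edgeR). For Irf1 it was -1.54 (adjusted p = 7.28e-06 by edgeR).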

How the results depend on the processing

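For the 88 values of members by comparison, all alternatives other than a minimum fold change were counted. Of these, 1238 kept the call or the lack of one, 55 lost the call and 22 gained one. In 2 the sign reversed where at least 1 of the fits compared had a call. Signs of values called in neither fit were not compared, and some of them changed, such as that of the Irf3 interaction of AOA with HT-DNA (-0.16, and 0.093 after the GC correction). The reversed values were those of Irf3 after correction for GC content and length, -0.074 for HT-DNA against Mock and 0.066 for HT-DNA+AOA+Asp against HT-DNA. A required change of 1 or more on the log2 scale left 0 members called for AOA against Mock, 0 for AOA+Asp against AOA, 0 for AOA+Asp against Mock, 1 for HT-DNA against Mock, 2 for HT-DNA+AOA against HT-DNA, 3 for HT-DNA+AOA+Asp against HT-DNA+AOA, 0 for HT-DNA+AOA+Asp against HT-DNA and 2 for HT-DNA+AOA+Asp against AOA+Asp. The same requirement left 5 members called for HT-DNA+AOA against AOA, 4 for the interaction of AOA and 4 for that of aspartate. For AOA+Asp against AOA, 3 members were called with library totals and 3 without a filter on low counts. Of all genes, 6571 of 14263 and 6483 of 29986 were called in these fits, against 6600 of 14263 in the main fit. For AOA+Asp against Mock, 3 were called with library totals, 3 with only those libraries fitted, 2 after the GC correction and 2 by DESeq2. All genes called in that comparison rose too, from 923 of 14263 to 1104 (library totals), 2462 of 13436 (only those libraries), 1759 (GC correction) and 1305 (DESeq2). Library totals moved the median of all genes by -0.131 for AOA against Mock and by -0.111 for HT-DNA against Mock. Leaving out 1 library gave 3 to 5 members for AOA against Mock (3 without Mock replicate 1, AOA replicate 2 or AOA replicate 3), 3 to 6 for AOA+Asp against AOA (3 without AOA replicate 2), 1 for AOA+Asp against Mock, 6 to 8 for HT-DNA against Mock, 5 to 7 for HT-DNA+AOA against HT-DNA, 7 for HT-DNA+AOA+Asp against HT-DNA+AOA, 2 to 4 for HT-DNA+AOA+Asp against HT-DNA, 5 for HT-DNA+AOA against AOA, 3 to 4 for HT-DNA+AOA+Asp against AOA+Asp, 5 to 6 and 4 for the interactions of AOA and of aspartate, and 11 to 14 neighbouring pairs in the order of levels (13 in the report). A replicate block made 4 members called for HT-DNA+AOA+Asp against HT-DNA, adding Irf5 (-0.62), gave 14 neighbouring pairs, left 5 members for HT-DNA+AOA against AOA, and changed no other count of members. With the block, 6692 of 14263 genes were called for HT-DNA+AOA+Asp against HT-DNA, and 6649 without it. For the minimum fold change and the fits without 1 library, no share over all genes is given. Those counts are not a result about the members. The causes of the changes in counts and calls were not tested. Depth limited Irf5, with 9 to 61 counts per library, and Ifnb1.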
